A study of Homo sapiens with 8 samples.

Results

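The transcripts described here are 42 genes of glucose breakdown and of the response to low oxygen, taken by gene symbol from the 38551 genes with counts in the deposited RNA-seq table. They comprise 17 glycolytic enzymes, 7 glucose or lactate transporters and flux regulators, 2 subunits of the hypoxia-inducible factor (HIF), 2 oxygen sensors, and 14 targets of HIF with roles in stress and adaptation. The 23 members outside the glycolytic enzymes and the HIF subunits are called other HIF targets below. RNA came from MOLM-13 cells, an established line derived from a KMT2A-rearranged acute myeloid leukemia and grown in RPMI with fetal bovine serum. Cells were exposed for 72 h to 100 nM PR-957 (ONX-0914), an inhibitor of the immunoproteasome subunit PSMB8, or to its diluent DMSO, with 4 libraries in each group. The labels name no low-oxygen treatment, and all libraries come from the same cell line, so nothing here speaks for other leukemias. Whether the replicates were separate cultures is not stated, so p-values measure the spread between these libraries, which may be technical.

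Glycolysis splits glucose into pyruvate through a chain of cytosolic enzymes, and lactate dehydrogenase turns pyruvate into lactate. Several steps are served by alternative isoenzymes encoded by separate genes. HIF is a pair of proteins: an oxygen-sensitive alpha subunit, such as HIF1A, and its constant partner ARNT. With oxygen present, the prolyl hydroxylases EGLN1 and EGLN3 mark the alpha subunit for destruction by the proteasome. With little oxygen the pair binds a short DNA element in the promoters of most glycolytic genes and of genes for mitophagy, collagen folding and growth restraint. The mRNA level of HIF1A therefore does not report the level of its protein.

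The core of that element reads ACGTG or GCGTG, and was searched on both strands in the 250 bases before each annotated start in a RefSeq promoter table of GRCh38.p14. Of the 42 members, 39 were matched, with 71 start sites, and SLC2A3, BNIP3L and NDRG1 were not matched. The core lay in 80.6% of the 31 windows of other HIF targets, in 51.4% of the 37 windows of glycolytic enzymes, and in 43.2% of all 35116 windows. These shares count windows, not genes, and some genes hold several, partly overlapping windows. HK1 and PFKM each held many windows, most of them without a core. By gene, only PGAM1, PKM and LDHB among the glycolytic enzymes had no core in any window. Among the matched other HIF targets only SLC2A1 and EGLN3 had none. The element CACGTG, which holds the core on both strands and is also bound by MYC and other factors, lay in 12.7% of the members' windows and in 6.34% of all windows. A match only describes the letters present. The windows below belong to the 2 tested members with the largest fitted falls (MIR210HG and DDIT4; CA9 had too few counts to test), a target with a smaller fall (ANKRD37), and 2 glycolytic enzymes that did not pass the test (PGK1 and ENO1). They are written 5′ to 3′ on the gene's strand, end at the base before the start site, and carry each core, in either orientation, in capitals.
MIR210HG, chr11:568458-568707, minus strand: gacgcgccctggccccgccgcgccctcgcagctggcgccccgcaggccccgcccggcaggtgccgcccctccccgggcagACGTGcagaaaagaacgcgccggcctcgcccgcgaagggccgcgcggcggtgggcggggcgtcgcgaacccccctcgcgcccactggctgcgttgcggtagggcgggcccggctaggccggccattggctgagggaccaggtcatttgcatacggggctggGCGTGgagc
DDIT4, chr10:72273674-72273923, plus strand: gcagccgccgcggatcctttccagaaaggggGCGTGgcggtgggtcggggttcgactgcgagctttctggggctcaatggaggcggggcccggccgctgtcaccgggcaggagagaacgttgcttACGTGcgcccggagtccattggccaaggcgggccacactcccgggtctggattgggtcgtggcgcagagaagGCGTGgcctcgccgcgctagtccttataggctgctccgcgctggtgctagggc
ANKRD37, chr4:185396591-185396840, plus strand: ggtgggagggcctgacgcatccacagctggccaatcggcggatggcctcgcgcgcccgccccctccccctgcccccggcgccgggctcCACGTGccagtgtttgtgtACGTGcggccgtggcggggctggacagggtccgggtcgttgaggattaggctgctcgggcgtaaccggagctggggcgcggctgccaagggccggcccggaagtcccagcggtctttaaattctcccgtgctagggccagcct
PGK1, chrX:78103998-78104247, plus strand: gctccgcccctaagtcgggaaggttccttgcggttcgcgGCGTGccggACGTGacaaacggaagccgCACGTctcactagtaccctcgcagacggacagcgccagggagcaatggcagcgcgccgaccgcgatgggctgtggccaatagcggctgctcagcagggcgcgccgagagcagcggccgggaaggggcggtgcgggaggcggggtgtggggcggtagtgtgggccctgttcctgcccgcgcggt
ENO1, chr1:8878687-8878936, minus strand: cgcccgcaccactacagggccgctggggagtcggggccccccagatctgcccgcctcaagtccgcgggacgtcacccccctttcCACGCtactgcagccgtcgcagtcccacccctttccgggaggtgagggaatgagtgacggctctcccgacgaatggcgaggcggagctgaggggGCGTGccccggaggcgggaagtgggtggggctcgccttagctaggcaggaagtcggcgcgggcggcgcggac
The MIR210HG window held cores starting 170 and 9 bases before the start, and the DDIT4 window held cores at 219, 125 and 53 bases. PGK1 also held 3 cores, at 211, 202 and 183 bases, and ENO1 held 2, at 166 and 72 bases. Windows with cores therefore stood before genes that fell and before genes that did not pass the test. MIR210HG is the host transcript of the microRNA miR-210, shown here because its targets are selected by the seed (bases 2 to 8, in capitals).
hsa-miR-210-3p, chr11:568112-568133, minus strand: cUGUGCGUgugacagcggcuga
The libraries were made from polyadenylated RNA, so the mature microRNA itself was not measured.

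Library totals ran from 16675036 to 23111223 counts, and DMSO replicate 4 was the deepest. Levels are CPM, counts relative to the library total after edgeR's TMM scaling for composition, and values of a group are listed in the order of replicates 1 to 4. A floor of 3 counts corresponded to between 0.130 and 0.180 CPM. Among markers of the labelled lineage, 10 of 13 myeloid genes reached at least 1 CPM in every library, with summed levels of 1540 to 1628 CPM in DMSO and 2320.4 to 2587 CPM in PR-957. Only 1 of 7 lymphoid, 0 of 8 erythroid or megakaryocytic and 2 of 8 non-hematopoietic markers did so. Summed levels in DMSO and PR-957 were 16.8 to 20.4 and 13.6 to 18.2 CPM for the lymphoid list, 2.32 to 3.08 and 2.67 to 3.52 CPM for the erythroid list, and 58.8 to 83.9 and 91.2 to 94.5 CPM for the non-hematopoietic list. PECAM1 and KRT8 were the 2 non-hematopoietic markers that reached 1 CPM throughout. Mean PECAM1 rose with PR-957 from 49.2 to 83.0 CPM, whereas mean KRT8 fell from 15.8 to 7.25 CPM. The higher sum of that list thus rested mainly on PECAM1. Whether PECAM1 marks non-hematopoietic cells here was not tested. The part of the shifts in these marker sums in the results below was not tested either. DMSO replicate 4 stood apart from the other DMSO libraries in many of the members, as described further down. The counts of members called and many comparisons are therefore also given without it. Where no second value is given, values rest on all libraries.

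Between PR-957 and DMSO, the other HIF targets were lower on balance, whereas the glycolytic enzymes moved in both directions. Genes were called at an adjusted p under 0.05 in edgeR's quasi-likelihood test, with Benjamini-Hochberg adjustment over the 13179 genes that passed the filter on low counts. Of the 40 members tested, 5 rose and 17 fell, where 46.6% of all genes tested were called, 23.1% as higher and 23.5% as lower. In this fit the called share of the members, 22 of 40, was near that of all genes, and the falls outnumbered the rises. Without DMSO replicate 4, 9 members rose and 19 fell, where 47.2% of 13331 genes were called, 23.4% as higher and 23.7% as lower. There 28 of the 40 members were called, a larger share than that of all genes. The same 5 rises and 16 of the 17 falls were called in both fits. In bulk RNA, a smaller share of cells expressing a gene and less RNA per cell cannot be told apart.

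Among the other HIF targets, 1 of the 21 tested rose and 11 fell, with a median log2 fold change of -0.70. Without DMSO replicate 4, 3 rose and 13 fell, with a median of -0.56. Within this set, the 7 transporters and flux regulators held 1 rise and 3 falls, with a median of -0.25. They held 3 rises and 3 falls, with a median of -0.09, when DMSO replicate 4 was left out. The 13 stress and adaptation targets tested held 0 rises and 7 falls, with a median of -0.84. Leaving out that library gave 0 rises and 9 falls among them, with a median of -0.70. The 17 glycolytic enzymes held 4 rises and 5 falls around a median of -0.11, and without DMSO replicate 4 they held 5 rises and 5 falls around a median of 0.02. The median of all genes tested was 0.003. At a change of at least 1.5-fold, which the study used as its own threshold, 9 of the other HIF targets fell and 0 rose, whereas 7.0% of all genes fell and 6.8% rose that far. Only 3 glycolytic enzymes passed that size, with HK1 and PKM higher and ALDOC lower. Without DMSO replicate 4 these counts were 10 falls and 1 rise among the other HIF targets, where 6.71% of all genes fell and 7.53% rose that far, and the same 2 rises and 1 fall among the enzymes. The groups did not overlap for 22 of the 40 members, or for 27 without DMSO replicate 4, where 42.5% and 48.5% of all genes did not overlap.

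**Figure D1:**
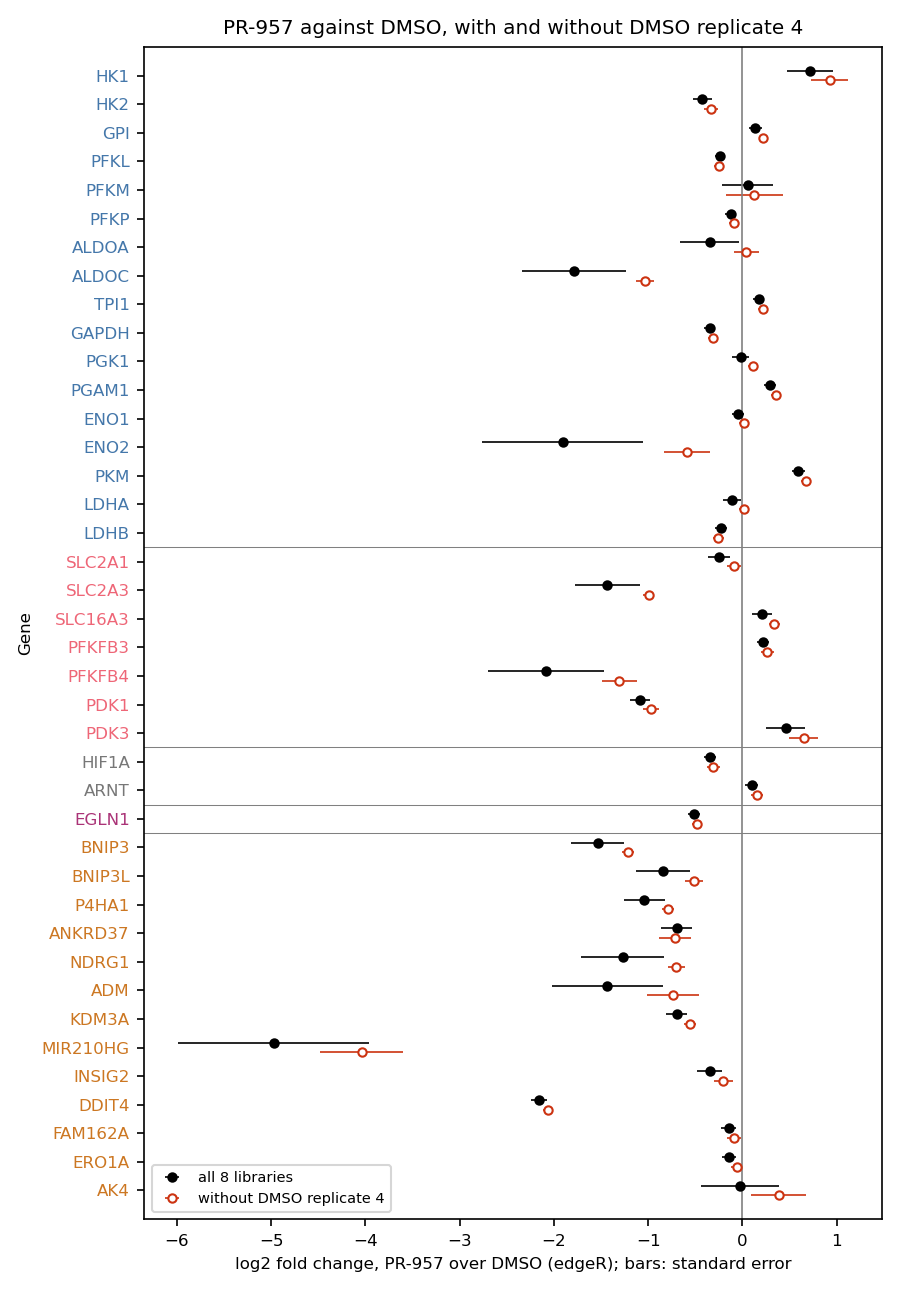
Log2 fold change of PR-957 over DMSO (horizontal axis, edgeR) for the 40 members tested, grouped by role; bars are standard errors, filled points use all 8 libraries and open points leave out DMSO replicate 4. Among the stress and adaptation targets at the bottom most points lie left of 0, from -4.97 for MIR210HG to -0.03 for AK4, and the open points mostly sit closer to 0 with shorter bars.

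The largest fall was that of MIR210HG (chr11:565657-568457, minus strand, hg38), the long noncoding RNA that carries miR-210 and a standard reporter of HIF activity. Its level was 2.51, 2.62, 4.23 and 14.0 CPM in DMSO and 0.111, 0.104, 0.0457 and 0.506 CPM in PR-957. The groups did not overlap, DMSO replicate 4 was far above the rest, and every PR-957 library rested on at most 9 counts. Summed over the groups, 477 counts stood against 14, a depth-scaled ratio of 35.7 (95% exact interval 21.0 to 65.7, counting error only), which was 17.1 (9.87 to 31.9) without DMSO replicate 4. The fitted log2 fold change was -4.97 (SE 1.02, edgeR adjusted p = 0.00699), and -4.04 (SE 0.44, adjusted p = 3.98e-07) without DMSO replicate 4.

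DDIT4 (chr10:72273924-72276036, plus strand) encodes an inhibitor of mTORC1 signalling that is induced by low oxygen and also by amino acid and endoplasmic reticulum stress. Per length it was the most abundant of the other HIF targets, at 686 ± 101 CPM per kilobase of exon in DMSO (SD, n = 4). Its level was 1038, 1090.2, 1221 and 1433 CPM in DMSO and 269, 262, 269 and 270.2 CPM in PR-957. The PR-957 libraries lay close together and far below every DMSO library. The fall was 4.47-fold (log2 fold change -2.16, SE 0.08, edgeR adjusted p = 6.2e-12) and 4.18-fold without DMSO replicate 4.

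BNIP3 and BNIP3L, receptors that mark mitochondria for removal by autophagy, were lower to different extents. BNIP3 measured 99.8, 83.1, 97.7 and 186 CPM in DMSO and 42.003, 40.2, 38.3 and 41.4 CPM in PR-957. Of its exon bases, 15.7% overlap PPP2R2D on the opposite strand. No PR-957 library reached the lowest DMSO library, and the log2 fold change was -1.53 (SE 0.28, edgeR adjusted p = 0.00451), or -1.21 (SE 0.07) without DMSO replicate 4. For BNIP3L the levels were 42.8, 42.8, 49.3 and 88.6 CPM in DMSO and 28.4, 26.8, 34.0 and 36.7 CPM in PR-957. These groups did not overlap either, but BNIP3L passed the test only without DMSO replicate 4 among the fits that left out a single library (log2 fold change -0.52, SE 0.10, adjusted p = 0.000373, against -0.84, SE 0.29, adjusted p = 0.0523 with it). With all libraries kept, DESeq2 (adjusted p = 0.00901) and limma-voom (0.00363) called the fall. So did edgeR with an assumed batch term for replicates 1 and 2 against 3 and 4 (0.0215), a grouping that the labels do not name.

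P4HA1, a subunit of the hydroxylase that stabilises collagen, fell from 73.6, 72.1, 73.9 and 127 CPM in DMSO to 41.8, 46.6, 39.4 and 41.6 CPM in PR-957. Its log2 fold change was -1.04 (SE 0.22, edgeR adjusted p = 0.00738), and -0.79 (SE 0.06) without DMSO replicate 4. KDM3A, a histone demethylase, measured 61.3, 64.2, 65.7 and 89.8 CPM in DMSO and 41.3, 47.7, 41.6 and 43.2 CPM in PR-957, a fall of 1.62-fold (adjusted p = 0.000396). For both genes every PR-957 library lay below every DMSO library. ANKRD37, a small ankyrin-repeat protein gene, measured 6.45, 5.18, 5.43 and 5.50 CPM in DMSO and 3.84, 3.71, 3.56 and 2.76 CPM in PR-957. It fell with a log2 fold change of -0.70 (SE 0.16 and adjusted p = 0.00163), and here DMSO replicate 4 was not the highest DMSO library. Of its exon bases, 65.5% overlap UFSP2 on the opposite strand, and no source used here gives whether counting used strand, so its level is uncertain.

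NDRG1, a stress-responsive gene linked to growth arrest, and ADM, which encodes the peptide hormone adrenomedullin, depended on DMSO replicate 4 in another way. NDRG1 measured 60.4, 50.5, 61.8 and 166 CPM in DMSO and 32.7, 33.8, 33.1 and 42.01 CPM in PR-957, without overlap. The log2 fold change of -1.27 (SE 0.44) did not pass with all libraries (edgeR adjusted p = 0.0543), but -0.70 (SE 0.09) without DMSO replicate 4 did (adjusted p = 7.6e-06), as did the fit without DMSO replicate 2 (adjusted p = 0.0444). With all libraries kept, DESeq2 and limma-voom called the fall of NDRG1 (adjusted p = 0.00753 and 0.00466). ADM measured 4.01, 4.85, 9.96 and 21.1 CPM in DMSO and 3.06, 4.28, 4.11 and 3.54 CPM in PR-957, and these groups overlapped. Its adjusted p was 0.0911 with all libraries, 0.0425 without DMSO replicate 4 and 0.0453 without DMSO replicate 1, all in edgeR, and 0.0266 in DESeq2 and 0.0415 in limma-voom with all libraries. For both genes, leaving out DMSO replicate 4 gave a smaller fold change with a smaller standard error.

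The remaining stress targets moved little. INSIG2, a brake on sterol synthesis, had a log2 fold change of -0.35 (SE 0.13 and edgeR adjusted p = 0.0435) with overlapping groups. That call was lost without DMSO replicate 3 (adjusted p = 0.0557), without DMSO replicate 4 (0.121), and without PR-957 replicates 1, 2 or 3 (0.0779, 0.112 and 0.1201). FAM162A, a mitochondrial protein gene (log2 fold change -0.15, SE 0.08), and ERO1A, an oxidase of the endoplasmic reticulum (-0.14, SE 0.07), did not pass; either would pass without DMSO replicate 2 (adjusted p = 0.0174 and 0.0369). AK4, a mitochondrial adenylate kinase, measured 7.14, 4.85, 9.24 and 15.8 CPM in DMSO and 7.46, 6.16, 10.9 and 12.3 CPM in PR-957. Its groups overlapped widely, and its log2 fold change was -0.03 (SE 0.41) with all libraries and 0.38 (SE 0.29) without DMSO replicate 4.

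A pair of members had too few counts to test. CA9, a cell-surface carbonic anhydrase that is among the most HIF-dependent genes known, had 4, 1, 3 and 65 counts in the DMSO libraries and 0 counts in every PR-957 library. Against a floor of 3 counts over the PR-957 group it was at least 25.5-fold lower, a bound that was 4.06-fold without DMSO replicate 4, which held most of its counts. EGLN3, a HIF-induced oxygen sensor, had 7 counts in DMSO, all in replicate 4, and 2 counts in PR-957, all in replicate 3. The depth-scaled ratio of DMSO over PR-957 was 3.66 (95% exact interval 0.697 to 36.1), so no difference was detectable at this depth.

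**Figure D2:**
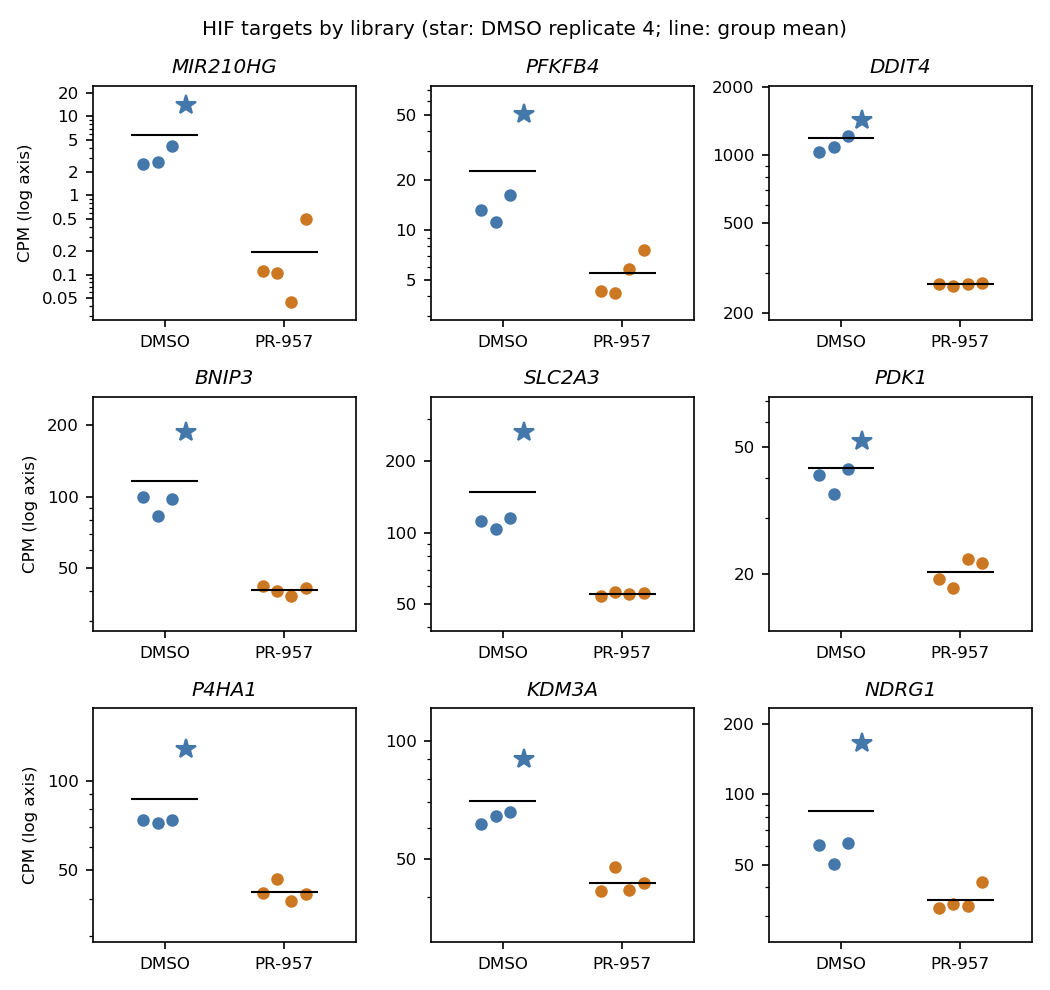
CPM per library (vertical log axis, scaled separately in each panel) of 9 HIF targets in DMSO (blue, star for replicate 4) and PR-957 (orange); lines are group means. In all 9 panels every PR-957 library lies below every DMSO library, and the star is the highest DMSO point. These genes were picked for display. Of the 21 other HIF targets tested, groups did not overlap in 13 and DMSO replicate 4 was the highest DMSO library in 20. Over all genes these shares were 42.5% and 29.5%.

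Transporters and regulators of glucose flux separated by isoform. SLC2A3, the high-affinity glucose transporter GLUT3 (chr12:7919230-7936187, minus strand), measured 112, 103, 116 and 265 CPM in DMSO and 54.1, 56.2, 55.3 and 56.1 CPM in PR-957. The PR-957 libraries were nearly level and below all DMSO libraries, with a log2 fold change of -1.43 (SE 0.35 and edgeR adjusted p = 0.0153), or -0.996 (SE 0.05, adjusted p = 4.75e-12) without DMSO replicate 4. SLC2A1, the widespread glucose transporter GLUT1, measured 31.0, 29.5, 33.1 and 45.2 CPM in DMSO and 31.7, 27.6, 27.5 and 30.6 CPM in PR-957. Its groups overlapped and its log2 fold change of -0.25 (SE 0.12) did not pass (adjusted p = 0.108), although it passed without DMSO replicate 2 (adjusted p = 0.0333) and without a filter on low counts (0.00592).

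PFKFB4 and PFKFB3 make and degrade fructose 2,6-bisphosphate, the activator of phosphofructokinase, and they moved in opposite directions. PFKFB4 (chr3:48517684-48562383, minus strand) measured 13.2, 11.1, 16.2 and 50.5 CPM in DMSO and 4.29, 4.18, 5.84 and 7.54 CPM in PR-957, without overlap. Its log2 fold change was -2.08 (SE 0.61, edgeR adjusted p = 0.0322), and -1.30 (SE 0.18, adjusted p = 2.91e-05) without DMSO replicate 4. The call was lost without PR-957 replicates 1, 2, 3 or 4 (adjusted p = 0.0830, 0.0816, 0.0777 and 0.0593), each a fit that kept DMSO replicate 4. PFKFB3 measured 37.6, 37.4, 41.0 and 43.7 CPM in DMSO and 44.4, 45.9, 47.9 and 47.9 CPM in PR-957, a rise with a log2 fold change of 0.22 (SE 0.07 and adjusted p = 0.0102). PFKFB4 shares 11.2% of its exon bases with UCN2 on the same strand.

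PDK1 and PDK3 are kinases that shut off pyruvate dehydrogenase and so keep pyruvate out of mitochondria. PDK1 fell from 41.0, 35.7, 42.7 and 52.4 CPM in DMSO to 19.3, 18.1, 22.2 and 21.7 CPM in PR-957. This was a 2.12-fold fall without overlap (log2 fold change -1.08, SE 0.11, edgeR adjusted p = 7.45e-07), and 1.96-fold without DMSO replicate 4. PDK3 measured 9.46, 9.75, 14.1 and 16.99 CPM in DMSO and 13.9, 15.97, 19.2 and 20.5 CPM in PR-957. Its groups overlapped, and it passed as higher without DMSO replicate 4 (log2 fold change 0.65, SE 0.16, adjusted p = 0.00406) but not with all libraries (0.46, SE 0.21, adjusted p = 0.0986). DESeq2 and limma-voom called PDK3 higher with all libraries (adjusted p = 0.0183 and 0.0345). So did edgeR without a filter on low counts (0.000324) and with the assumed batch term (0.000182). SLC16A3, the lactate exporter MCT4, passed as higher only without DMSO replicate 4 among the fits that left out a single library (log2 fold change 0.34, SE 0.06, adjusted p = 6.5e-05, against 0.21 with all libraries). With all libraries it passed without a filter on low counts (adjusted p = 0.00578) and with the batch term (0.0312). Its levels were 103, 100.1, 117 and 146 CPM in DMSO and 136, 132, 131 and 140.3 CPM in PR-957, so that only DMSO replicate 4 did not lie below the PR-957 libraries. Of the exon bases of SLC16A3, 17.7% overlap CSNK1D on the opposite strand.

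The HIF subunits and the main oxygen sensor moved by less than 1.5-fold. HIF1A (chr14:61695513-61748259, plus strand) measured 47.5, 53.2, 52.0 and 56.6 CPM in DMSO and 38.4, 43.7, 40.7 and 42.1 CPM in PR-957. It fell 1.27-fold without overlap (log2 fold change -0.35, SE 0.07, edgeR adjusted p = 0.000284), and 1.24-fold without DMSO replicate 4. Of its exon bases, 28.5% overlap HIF1A-AS2 on the opposite strand. ARNT measured 55.2, 62.7, 62.5 and 69.5 CPM in DMSO and 63.5, 70.4, 64.6 and 69.8 CPM in PR-957, overlapping, with a log2 fold change of 0.10 (SE 0.07 and adjusted p = 0.239) that was 0.15 (adjusted p = 0.0477) without DMSO replicate 4. EGLN1, the main HIF prolyl hydroxylase and itself a HIF target, fell from 144, 146, 146 and 159 CPM in DMSO to 101, 115, 97.7 and 103 CPM in PR-957. Its groups were well apart, with a log2 fold change of -0.51 (SE 0.06 and adjusted p = 1.07e-06) that was -0.48 without DMSO replicate 4.

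The glycolytic enzymes spanned a wide range of levels, given here per length as FPKM, the scaled CPM per kilobase of annotated exon. GAPDH was at 1878 ± 101 FPKM in DMSO (SD, n = 4), followed by LDHB at 814 ± 47.2 and ENO1 at 572 ± 53.5. PFKM, the muscle phosphofructokinase, was lowest at 0.261 ± 0.0793 FPKM. Of its exon bases, 11.2% overlap SENP1 on the opposite strand. GAPDH, LDHB and ENO1 changed by at most 1.27-fold, and the enzymes called past 1.5-fold were HK1, ALDOC and PKM.

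**Figure D3:**
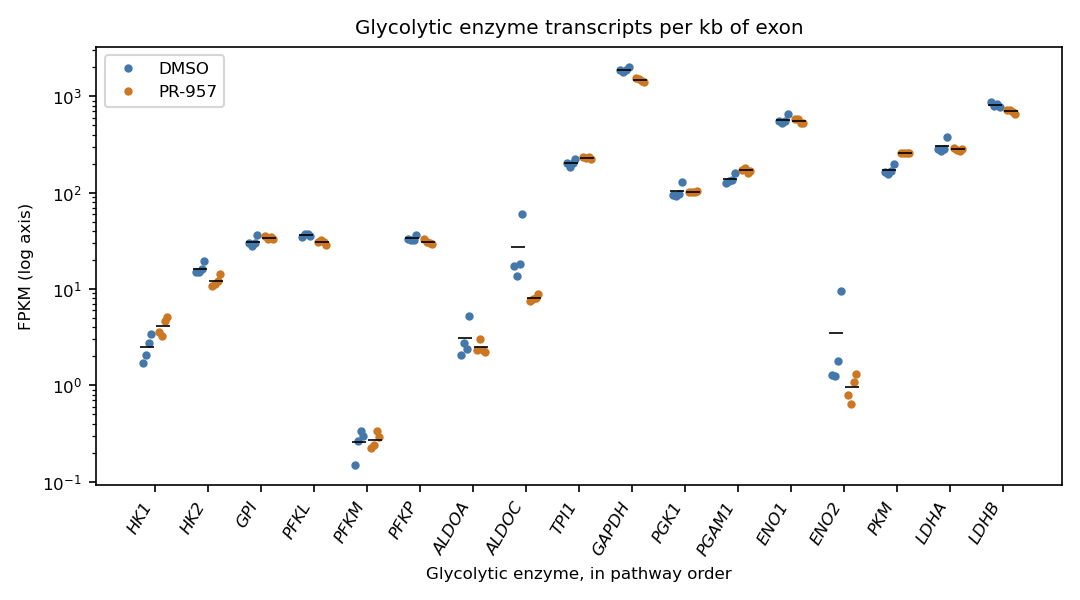
FPKM per library (vertical log axis) of the 17 glycolytic enzymes in the order of the pathway, for DMSO (blue) and PR-957 (orange), replicates 1 to 4 from left to right; short lines are group means. GAPDH, LDHB and ENO1 lie highest, PFKM lowest, and ALDOC and ENO2 have 1 DMSO library far above the other 3.

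At the entry of the pathway the hexokinases moved apart. HK2, the inducible hexokinase bound to mitochondria, measured 88.2, 87.1, 93.9 and 113 CPM in DMSO and 63.3, 66.6, 71.5 and 84.0 CPM in PR-957. It fell with a log2 fold change of -0.42 (SE 0.10 and edgeR adjusted p = 0.00414), without overlap. HK1, the housekeeping hexokinase, measured 9.39, 11.1, 15.0 and 18.7 CPM in DMSO and 19.5, 17.9, 25.2 and 27.7 CPM in PR-957. Only DMSO replicate 4 reached into the PR-957 range, and HK1 rose with a log2 fold change of 0.72 (SE 0.24 and adjusted p = 0.0442), or 0.92 (SE 0.20, adjusted p = 0.00487) without that library. The HK1 call was lost without DMSO replicates 1, 2 or 3 (adjusted p = 0.0570, 0.0978 and 0.0689) and without PR-957 replicates 1, 3 or 4 (0.0597, 0.102 and 0.106).

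Phosphofructokinase, the committed step, changed little. PFKL fell from 140.5, 150.1, 150.02 and 143 CPM in DMSO to 125, 130.1, 123 and 117 CPM in PR-957, a fall of 1.18-fold (edgeR adjusted p = 0.00114). PFKP had a log2 fold change of -0.13 (SE 0.06) and PFKM one of 0.06 (SE 0.27), and neither passed; PFKP passed without PR-957 replicate 1 (adjusted p = 0.0390). GPI, which isomerises glucose 6-phosphate, measured 331, 305, 329 and 399 CPM in DMSO and 388, 365, 379.9 and 368 CPM in PR-957. It passed as higher without DMSO replicate 4 (log2 fold change 0.22, SE 0.05, adjusted p = 0.000983) and not with it (0.14, SE 0.07, adjusted p = 0.103), unless scaled by library totals alone (adjusted p = 0.0181). GPI shares 20.3% of its exon bases with KIAA0355 on the same strand.

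Of the aldolases, which cleave fructose 1,6-bisphosphate, ALDOC (chr17:28573115-28576963, minus strand) fell and ALDOA did not pass. ALDOC measured 30.3, 23.7, 31.4 and 104 CPM in DMSO and 13.04, 13.6, 13.9 and 15.2 CPM in PR-957, without overlap. Its log2 fold change was -1.79 (SE 0.55, edgeR adjusted p = 0.0389), and -1.03 (SE 0.10, adjusted p = 2.31e-08) without DMSO replicate 4. The call was lost without PR-957 replicates 1, 2, 3 or 4, with adjusted p-values of 0.0922, 0.0879, 0.0924 and 0.0845. ALDOA measured 8.08, 10.9, 9.42 and 20.7 CPM in DMSO and 9.19, 11.8, 9.27 and 8.83 CPM in PR-957, overlapping, with a log2 fold change of -0.35 (SE 0.31) that was 0.04 (SE 0.13) without DMSO replicate 4. ALDOA shares 35.7% of its exon bases with LOC112694756 on the same strand, and no source used here gives how reads in shared bases were assigned, so its level is uncertain.

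In the lower pathway, which earns ATP, TPI1, PGAM1 and PKM rose, GAPDH and LDHB fell, and PGK1, ENO1, ENO2 and LDHA did not pass. GAPDH, often used as a reference transcript, fell from 3232, 3070.4, 3208 and 3491 CPM in DMSO to 2659, 2628, 2505 and 2440.0 CPM in PR-957. This fall of 1.27-fold (log2 fold change -0.35, SE 0.06, edgeR adjusted p = 8.98e-05) was 1.24-fold without DMSO replicate 4, and the groups did not overlap. TPI1, which interconverts the triose phosphates, rose by a log2 fold change of 0.18 (SE 0.06 and adjusted p = 0.0192), a call lost without DMSO replicate 2 (adjusted p = 0.0917) and without PR-957 replicate 3 (0.0583). PGAM1, a phosphoglycerate mutase, rose from 261, 274, 279.9 and 326 CPM to 355, 373, 328 and 342 CPM (log2 fold change 0.29, SE 0.07, adjusted p = 0.0012). PGK1, a phosphoglycerate kinase and classic HIF target, measured 452, 443, 469.6 and 621 CPM in DMSO and 493, 488, 483 and 499 CPM in PR-957. DMSO replicate 4 lay above all PR-957 libraries and the other 3 DMSO libraries below them, and the log2 fold change was -0.02 (SE 0.09), or 0.11 (SE 0.05, adjusted p = 0.0702) without that library.

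ENO1, the main enolase, had a log2 fold change of -0.05 (SE 0.07) and did not pass. ENO2, the neuronal enolase (chr12:6914580-6923697, plus strand), measured 2.94, 2.84, 4.11 and 22.1 CPM in DMSO and 1.84, 1.46, 2.47 and 2.98 CPM in PR-957. Its groups overlapped slightly, and neither fit passed, with log2 fold changes of -1.91 (SE 0.85, edgeR adjusted p = 0.115) and of -0.59 (SE 0.24, adjusted p = 0.0504) without DMSO replicate 4. PKM, the pyruvate kinase (chr15:72199029-72231624, minus strand), rose from 673, 636, 693 and 815 CPM to 1064, 1066, 1065 and 1059 CPM. All PR-957 libraries lay above all DMSO libraries, and the rise was 1.51-fold (log2 fold change 0.59, SE 0.07, adjusted p = 6.19e-07), or 1.59-fold without DMSO replicate 4. The table counts whole genes, so the M1 and M2 forms of PKM were not told apart.

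LDHA, the lactate dehydrogenase gene under HIF control, measured 785, 739, 782 and 1052 CPM in DMSO and 809, 770.4, 740.4 and 784 CPM in PR-957. Outside DMSO replicate 4 the groups overlapped, and the log2 fold change was -0.11 (SE 0.09) with all libraries and 0.01 (SE 0.05) without it. LDHB fell from 1711, 1543, 1612 and 1499.6 CPM to 1417, 1414, 1331 and 1272 CPM, a fall of 1.17-fold without overlap (edgeR adjusted p = 0.00394).

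Shares of the isoenzymes within a step, computed from length-scaled levels, put the changes on a common base. HK2 made up 89.7%, 87.9%, 85.3% and 84.9% of hexokinase 1 and 2 transcripts in DMSO and 75.1%, 77.6%, 72.5% and 73.8% in PR-957. The mean share was 87.0% ± 2.27 (SD, n = 4) in DMSO and 74.8% ± 2.16 in PR-957, and the groups did not overlap. An exact two-sided permutation test gave p = 0.0286, the smallest that 4 against 4 libraries allow, and 0.1 after adjustment over the 7 shares. ALDOC made up 88.2% ± 3.72 of aldolase A and C transcripts in DMSO and 76.4% ± 3.07 in PR-957, with the same exact permutation p and adjusted p, and rests on the uncertain level of ALDOA. LDHB made up 75.5%, 74.7%, 74.4% and 66.8% of lactate dehydrogenase transcripts in DMSO and 71.2%, 72.2%, 71.7% and 69.6% in PR-957. DMSO replicate 4 had the lowest LDHB share of all libraries, the other DMSO libraries the highest, and the exact permutation p was 0.486. None of the remaining shares, of the phosphofructokinases and of ENO2, passed before or after adjustment.

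DMSO replicate 4 differed from the other DMSO libraries in many of the same HIF targets. It was the highest DMSO library in 36 of the 40 members tested, where it was highest in 29.5% of all genes. In 14 of the 40 it lay at least 1.5-fold above the mean of DMSO replicates 1 to 3, against 6.83% of all genes, and in 9 at least 2-fold, against 2.17%. The median log2 ratio to that mean was 0.53 over the other HIF targets, 0.29 over the glycolytic enzymes and -0.02 over all genes. ENO2 was 6.71-fold, MIR210HG 4.49-fold, PFKFB4 3.75-fold, ALDOC 3.66-fold and ADM 3.36-fold higher in DMSO replicate 4. NDRG1 was 2.89-fold and SLC2A3 2.40-fold higher. In contrast, LDHB, ANKRD37 and PFKL stood at 0.924, 0.968 and 0.977 of the mean of the others, and DDIT4 at 1.28-fold. PFKFB4, ALDOC, BNIP3 and SLC2A3 were thus high in DMSO replicate 4 and low in PR-957, while DDIT4, PDK1 and EGLN1 were low in PR-957 while less than 1.5-fold above the mean of the others in that library.

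**Figure D4:**
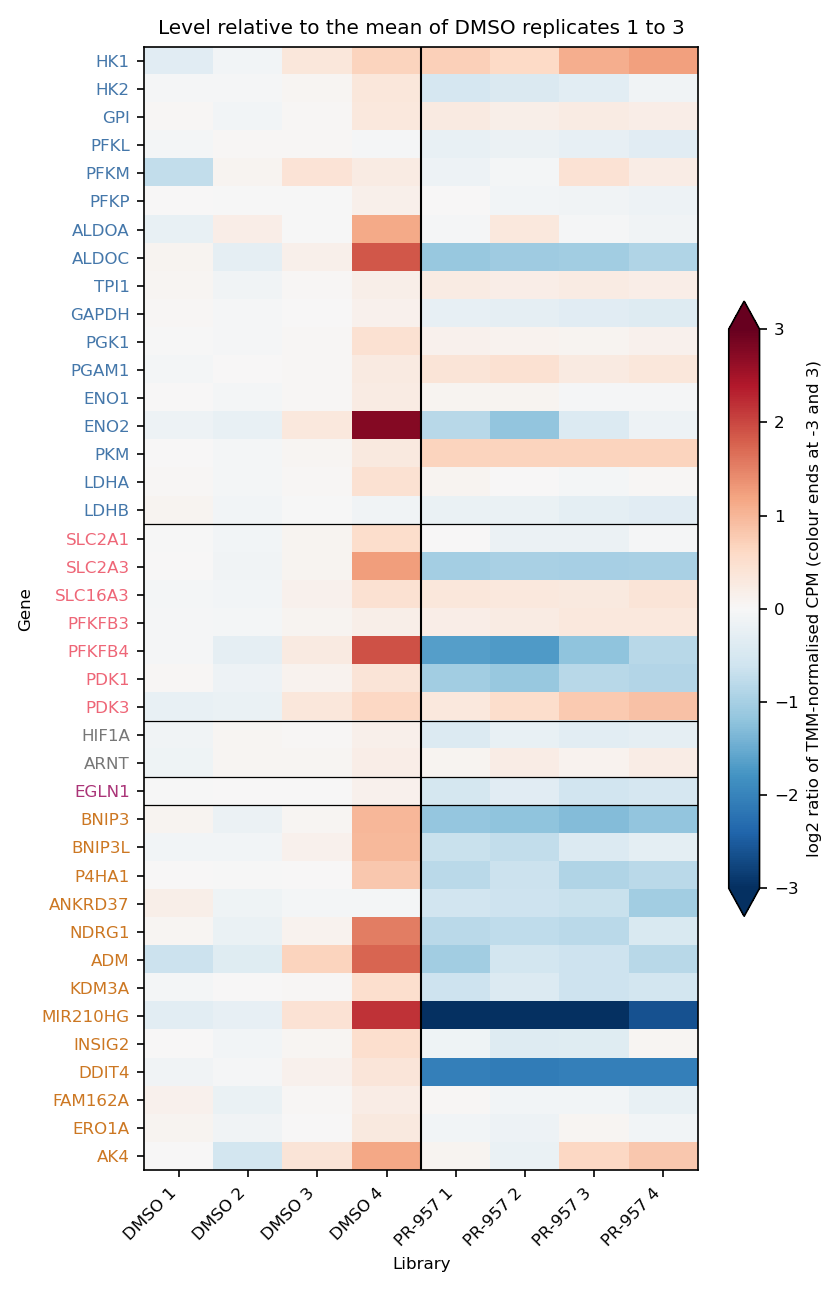
Log2 ratio of each member's CPM to the mean of DMSO replicates 1 to 3 (colour, ends at -3 and 3) in all 8 libraries, with members in rows by role and libraries in columns. The DMSO 4 column is red for ENO2, MIR210HG, PFKFB4 and ALDOC, and the PR-957 columns are blue for MIR210HG, DDIT4, PFKFB4 and BNIP3 and red for PKM and HK1.

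**Figure D5:**
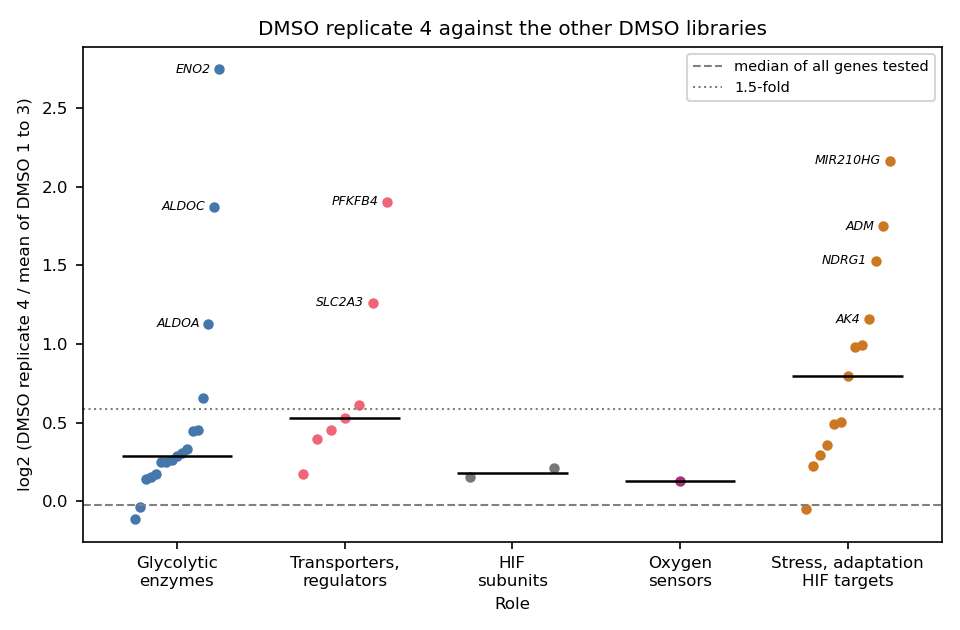
Log2 ratio of DMSO replicate 4 to the mean of DMSO replicates 1 to 3 (vertical axis) for the 40 members tested, by role; bars are medians, the dashed line is the median of all genes tested and the dotted line marks 1.5-fold. The stress and adaptation targets have the highest median, 0.80, and members above 2-fold are named.

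Lists of related genes, chosen with earlier results of these data known, place the members in their pathways, and their counts are read against the 23.1% of all genes called higher and 23.5% called lower. Of 13 other glycolytic isoenzymes and branch enzymes tested, 5 rose and 3 fell (median log2 fold change 0.12). HK3, a myeloid hexokinase, rose by 1.25 (SE 0.25, edgeR adjusted p = 0.000659), or by 1.57 (SE 0.22) without DMSO replicate 4. The glycogen phosphorylases PYGB and PYGL, which release glucose from glycogen, fell, with log2 fold changes of -0.85 and -0.62. In the pentose phosphate pathway, which draws on glucose 6-phosphate, 2 of 7 rose and 2 fell, with TALDO1 higher by 0.62 (SE 0.07). Of 12 genes for the entry of pyruvate into mitochondria, 3 rose and 1 fell, among them the pyruvate dehydrogenase subunit PDHA1 at 0.32 and the pyruvate dehydrogenase phosphatase PDP2 at -0.46. The 16 genes of the tricarboxylic acid cycle held 5 rises and 1 fall around a median of 0.03, led by IDH3B at 0.41. In lists this small, counts such as these were not set apart from the shares over all genes by any test.

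Of 10 other HIF pathway components tested, 3 rose and 1 fell. EPAS1, which encodes the alternative alpha subunit HIF-2α, rose from 8.04 ± 0.416 to 13.4 ± 1.63 CPM (SD, n = 4), a log2 fold change of 0.74 (SE 0.11 and edgeR adjusted p = 2.38e-05), while HIF1A fell. Among 26 further hypoxia-induced genes tested, 4 rose and 11 fell (median -0.25, and -0.15 with 8 rises and 11 falls without DMSO replicate 4). At a change of at least 1.5-fold, 3 rose and 7 fell, where 6.8% of all genes rose and 7.0% fell that far. The growth factor VEGFA fell from 496 ± 34.4 to 133 ± 6.37 CPM (log2 fold change -1.90, SE 0.06, adjusted p = 1.22e-14), and STC2, a secreted glycoprotein gene, had a log2 fold change of -4.01 (SE 0.10 and adjusted p = 5.24e-16). Neither stood out in DMSO replicate 4, with log2 ratios to the other DMSO libraries of 0.16 and -0.01.

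Several HIF targets, DDIT4, VEGFA and STC2 among them, are also induced through ATF4, the transcription factor of the amino acid response. All 13 ATF4 targets tested fell (median -1.94, and -2.004 without DMSO replicate 4), and their median log2 ratio in DMSO replicate 4 was -0.12. STC2 and VLDLR stand both in this list and in that of the further hypoxia-induced genes. The part of ATF4 in the falls of HIF targets was not tested. The element TGATGNAA, a short form of the composite site bound by ATF4 with C/EBP proteins and searched on both strands, lay in 3.14% of all promoter windows, in 0 of the 31 windows of other HIF targets, and in 2 overlapping windows of HK1. This says only that these letters are not in those 250 bases.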

How the data were processed

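Polyadenylated RNA from MOLM-13 cells was sequenced in 4 DMSO and 4 PR-957 libraries. Per the labels and the study's methods, the authors aligned paired-end reads to hg38 with STAR (2.7.10a, after Trimmomatic 0.39) and the deposited counts, whole numbers per gene, came from featureCounts (2.0.1); its strand and overlap settings are not given in the sources used here. The authors' table of fold changes and p-values from DESeq2 was not used, and 6 rows without values were left out. Counts were scaled by TMM, filtered with filterByExpr and tested with the quasi-likelihood test of edgeR (version 4.0.16, R 4.3.3, robust glmQLFit) with Benjamini-Hochberg adjustment over 13179 genes. FPKM divides TMM-scaled CPM by the exon length on primary chromosomes. Fold changes are fitted values. Totals of 16675036 to 23111223 counts set the precision, and intervals and floors cover counting error only.

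The members and lists were chosen with earlier results of these data known. All members were described by role, and from each related list up to 3 called genes with the largest absolute log2 fold change and an average log2 CPM of at least 1 could be named. Alternatives were DESeq2 1.42.0, limma-voom (limma 3.58.1), other scalings and filters, a replicate block, a batch term, subsets of replicates and leaving out each library. The batch term was assumed from the replicate numbers, as the labels name no batch. A promoter window of 300 bases was added after seeing the data. No pair of libraries agreed within sampling noise (lowest chi-square per gene 3.28). The test script was checked on simulated counts.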

Additional observations from a re-analysis of the deposited data

Results flagged for a closer look

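Dixon's test at the 95% level asks whether the gap of a library to its nearest neighbour is large against the range of its group. It was applied to 97 groups of 4 values (each member's CPM in DMSO and in PR-957, and the 7 isoenzyme shares). Of these, 22 stood out, against a nominal rate of about 1 in 20 groups. DMSO replicate 4 was the library apart in 18 of the 22. The share of all genes that stand out in this test was not computed, so the nominal rate is no baseline for these libraries. DMSO replicate 4 lay at least 1.5-fold above the other DMSO libraries in 6.83% of all genes, the largest such share of any library. The EGLN3 groups stood out by construction, as all other libraries in each held no counts.

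Among the glycolytic enzymes, DMSO replicate 4 lay apart from the other DMSO libraries for PFKP at 149.5 CPM, ALDOC at 104 CPM, PGK1 at 621 CPM, ENO2 at 22.1 CPM and LDHA at 1052 CPM. Its ENO2 share of enolase transcripts was 1.46% against 0.231% to 0.318% in the others. Its LDHB share of lactate dehydrogenase transcripts was 66.8% against 74.4% to 75.5%. Among transporters and regulators, SLC2A3 at 265 CPM and PFKFB4 at 50.5 CPM stood apart in it. So did the oxygen sensors EGLN1 at 159 CPM and EGLN3 at 0.306 CPM, the latter from 7 counts. The stress targets that stood apart in DMSO replicate 4 were CA9 at 2.84 CPM, BNIP3 at 186 CPM, BNIP3L at 88.6 CPM, P4HA1 at 127 CPM, NDRG1 at 166 CPM, KDM3A at 89.8 CPM and MIR210HG at 14.0 CPM. Of these, P4HA1 had the tightest other libraries, between 72.1 and 73.9 CPM.

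In PR-957, replicate 4 stood apart for NDRG1 at 42.01 CPM and for MIR210HG at 0.506 CPM, both again the highest of their group. PR-957 replicate 2 stood apart for ALDOA at 11.8 CPM, and PR-957 replicate 3 for EGLN3 at 0.0913 CPM, which is 2 counts. In PR-957 replicate 4, 3 other HIF targets lay at least 1.5-fold above the other PR-957 libraries, where 4.31% of all genes did.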

How the results depend on the processing

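The 22 calls among members ranged from 17 (without PR-957 replicate 3) to 28 (without DMSO replicate 4) when single libraries were left out. In those fits 5305 of 13315 and 6287 of 13331 genes were called, against 6143 of 13179 with all libraries. Calls over all genes ranged from 4681 (replicates 3 and 4 only) to 6913 (replicate block) under the alternatives. DDIT4, PDK1, KDM3A, EGLN1, ANKRD37, HIF1A, HK2, GAPDH, PFKL, LDHB and PKM passed under all 19 alternatives. TPI1 passed under 16, HK1 and ALDOC under 12, PFKFB4 under 13 and INSIG2 under 10. MIR210HG, BNIP3, P4HA1, SLC2A3, PGAM1 and PFKFB3 each passed under 18. These missed the threshold with replicates 3 and 4 only (edgeR adjusted p = 0.109, 0.113, 0.125, 0.169, 0.225 and 0.153). Without a filter on low counts, HK1, ALDOC and PFKFB4 missed the threshold (edgeR adjusted p = 0.0547, 0.0693 and 0.0571), as did INSIG2 with upper-quartile scaling (0.0648) and library totals alone (0.132). The number of other HIF targets called higher, 1 in the report, was 2 with DESeq2 and with limma-voom, 3 without a filter on low counts, 3 with the 2-level batch term, 3 with replicates 1 and 2 only, 0 with replicates 3 and 4 only, and 1 to 3 when single libraries were left out. The glycolytic enzymes called higher, 4 in the report, were 2 with replicates 3 and 4 only and 2 to 5 when single libraries were left out. Their median was 0.095 with replicates 1 and 2 only. With replicates 3 and 4 only, 7 members passed at 1.5-fold, in place of 12, where 1922 of 13520 genes did so, in place of 1818 of 13179. The cause was not tested in these cases. The fall of the ALDOC share was -18.1 percentage points from counts not divided by length. With library totals alone, calls over all genes were 4066 higher and 2353 lower, in place of 3045 and 3098, and the median ratio of DMSO replicate 4 over all genes was 0.014, in place of -0.02.

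Signs of uncalled members turned as follows (log2 fold change). AK4 was at 0.019 with limma-voom, 0.054 with library totals alone, 0.0080 with the batch term, 0.19 with replicates 1 and 2 only, and from -0.24 to 0.38 when single libraries were left out. PGK1 was at 0.060 and ENO1 at 0.030 with library totals alone. With replicates 1 and 2 only, ALDOA was at 0.14, PGK1 at 0.13, ENO1 at 0.095, LDHA at 0.052 and FAM162A at 0.00019. When single libraries were left out, ALDOA ranged from -0.50 to 0.040, PGK1 from -0.069 to 0.11, ENO1 from -0.087 to 0.018 and LDHA from -0.17 to 0.011, each positive only without DMSO replicate 4, and PFKM from -0.13 to 0.18. PFKM was at -0.0048 with replicates 3 and 4 only.

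The labels do not say whether same-numbered libraries were paired, and the main fit treated them as unpaired. Deviations of same-numbered libraries correlated at 0.15, 0.21, 0.098 and 0.20. Each DMSO library correlated best with its own number, while PR-957 replicate 3 correlated best with DMSO replicate 4 (0.11). Whether the libraries were paired was not settled. With a replicate block, 27 members were called, 3 other HIF targets were higher, ALDOC missed the threshold (adjusted p = 0.0605, edgeR), GPI, PFKP, SLC2A1, SLC16A3, PDK3 and BNIP3L gained it (0.0337, 0.0423, 0.0225, 0.0166, 0.000113 and 0.00522), AK4 was at 0.038, and over all genes 6913 were called in place of 6143. Of 42 members, CA9 and EGLN3 were limited by depth.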
